A study of Homo sapiens with 4 samples.

Results

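Solute carriers are membrane proteins that move small molecules across the cell surface or the membranes of organelles, and each family carries a related group of substrates. The genes described here are the solute carrier genes that read well above dim levels in LSTGFBR2 cells, a colon cancer epithelial line. They were taken as genes whose symbol begins with SLC and a digit and whose brightest probe set (the group of short array probes that reads a transcript) averaged 8 or more on the log2 scale over the 4 arrays. SLC2A1, SLC2A3, SLC7A11 and SLC29A1 were left out by the rule. This gave 172 of the 376 solute carrier genes in the table, out of 19775 genes in all. The mean over all arrays chose the members, so near the threshold the choice also depends on the difference between the groups. SLC7A7, SLC41A2 and SLC52A3 averaged under 8 in the untreated group and SLC20A2 and SLC24A1 in the TGF-β1 group, and these 5 are members through the other group.

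The tested cells were given TGF-β1 at 5 ng/ml for 16 hours (n = 2 arrays), and the other group was untreated (n = 2 arrays). For both groups a period of 16 hours before the TGF-β1 step is listed. TGF-β1 is a cytokine that restrains the growth of epithelial cells that carry its receptors. Both groups are 1 cell line that carries a TGFBR2 construct switched on by doxycycline, an antibiotic used at 1 µg/ml, and it is not labelled which arrays were given it. TGFBR2, which encodes the type II TGF-β receptor, read 14.70 and 14.92 in the TGF-β1 arrays, against 9.44 and 9.55 in the untreated arrays, so the groups differ in that signal as well as in the cytokine. Effects of TGF-β1, of the receptor level and of any difference in doxycycline cannot be told apart in this design. No label says that the arrays of a group were separate cultures. The p-values rest on the distance between arrays, which may be technical only. In such bulk RNA, fewer cells with a transcript and less of it per cell cannot be told apart.

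The label of an epithelial cell was checked against markers. Of 12 colon epithelial markers, 11 averaged 8 or more, with KRT20 the exception at 7.75, and their log2 values summed to between 136 and 137 in both groups. The intestinal transcription factor gene CDX2 was the 1 marker of the 12 that passed, at 8.57 and 8.43 in the TGF-β1 arrays, against 9.32 and 9.14 in the untreated arrays (log2 fold change -0.73, limma adjusted p = 0.0327). The part of this difference in the results below was not tested. Of 18 listed markers of fibroblasts, endothelial cells and leukocytes, 16 were named in the table and 1 reached 8, the fibroblast collagen gene COL1A1 at 9.33. None of those 16 passed the test. The log2 values of the 7 fibroblast markers summed to between 45.1 and 46.3 in the TGF-β1 arrays and between 47.4 and 48.3 in the untreated arrays, and the part of this difference in the results below was not tested.

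Carriers fall into groups with different tasks. Folate, choline and nucleoside carriers of the cell surface bring in building blocks for nucleotides and membranes. The SLC25 family exchanges metabolites across the inner mitochondrial membrane, the SLC39 and SLC30 families move zinc into and out of the cytosol, and the SLC35 family brings nucleotide sugars into the Golgi and the endoplasmic reticulum. In the colon, carriers also serve uptake and ion balance of the epithelium.

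Of the 172 solute carrier genes, 8 fell, 2 rose and 162 did not pass in the TGF-β1 cells by limma, where a call is a Benjamini-Hochberg adjusted p below 0.05 across the whole gene table. The 10 called genes were 5.81% of the members. Among all genes tested 3.34% were called, and among all genes with a mean of 8 or more 5.77%, so the share of members called was close to that of other genes of similar level. By direction, 4.65% of members fell and 1.16% rose, against 2.68% lower and 3.09% higher among all genes with a mean of 8 or more, and 1.47% lower and 1.87% higher among all genes. The difference between these shares was not tested. The median log2 fold change was 0.01 over the members and -0.01 over all genes with a mean of 8 or more. Of the members 89 lay above 0 and 83 below. Among the 9221 genes with a mean of 8 or more, 4487 lay above 0 and 4734 below. Only 2 members changed by 2-fold or more, and 115 had a log2 fold change between -0.25 and 0.25. None of the 10 calls was kept with any 1 of the 4 arrays left out, in fits where 70 to 104 of all 19775 genes passed, and 2 were kept, SLC19A1 and SLC28A3, when every probe set was tested.

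The promoters of some called genes are shown because they hold, or lack, the E-box CACGTG, a palindrome that transcription factors of the basic helix-loop-helix class, MYC among them, are known to bind. Each window runs from 250 bases before to 50 bases after an annotated start (RefSeq, GRCh38.p14), 5′ to 3′ on the gene's strand, with the motif in capitals. SLC19A1 and SLC25A33 fell, SLC41A2 rose, and SLC25A15, which fell, has no CACGTG in its window. SLC19A1 has 4 windows, of which the 1 shown holds the motif, and SLC41A2 has 2, of which 1 does.
SLC19A1 promoter, chr21:45541797-45542096, minus strand: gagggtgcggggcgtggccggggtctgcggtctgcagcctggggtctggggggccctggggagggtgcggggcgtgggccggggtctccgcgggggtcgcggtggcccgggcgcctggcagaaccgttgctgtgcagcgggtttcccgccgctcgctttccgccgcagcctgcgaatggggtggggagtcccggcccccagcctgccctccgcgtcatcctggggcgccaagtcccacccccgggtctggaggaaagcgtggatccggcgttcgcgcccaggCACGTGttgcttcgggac
SLC25A33 promoter, chr1:9539215-9539514, plus strand: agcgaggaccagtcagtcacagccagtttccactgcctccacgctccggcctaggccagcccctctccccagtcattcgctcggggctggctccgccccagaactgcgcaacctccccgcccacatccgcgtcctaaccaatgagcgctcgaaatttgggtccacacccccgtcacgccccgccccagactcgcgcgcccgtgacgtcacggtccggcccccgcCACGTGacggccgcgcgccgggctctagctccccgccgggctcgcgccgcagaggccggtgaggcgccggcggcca
SLC41A2 promoter, chr12:104958697-104958996, minus strand: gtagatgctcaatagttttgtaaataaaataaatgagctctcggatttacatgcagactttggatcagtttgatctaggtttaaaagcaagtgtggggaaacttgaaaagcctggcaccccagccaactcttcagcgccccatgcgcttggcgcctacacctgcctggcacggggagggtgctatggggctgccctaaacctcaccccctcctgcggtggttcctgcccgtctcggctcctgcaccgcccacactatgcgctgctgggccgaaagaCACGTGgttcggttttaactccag
SLC25A15 promoter, chr13:40789361-40789660, plus strand: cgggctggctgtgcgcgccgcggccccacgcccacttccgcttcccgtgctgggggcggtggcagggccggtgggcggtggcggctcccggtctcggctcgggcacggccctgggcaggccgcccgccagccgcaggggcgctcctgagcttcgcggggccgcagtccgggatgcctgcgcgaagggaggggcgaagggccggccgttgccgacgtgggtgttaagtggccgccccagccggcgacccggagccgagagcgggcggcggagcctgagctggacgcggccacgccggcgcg

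Promoter windows were found for 147 of the 172 members. CACGTG was present in at least 1 window of 30 of these (20.4%), against 13.5% of 7716 genes with a mean of 8 or more and 8.77% of all 27305 genes with a window. Of the 6 genes that fell and have a window, 2 held it. The palindrome GTCTAGAC, which SMAD proteins are known to bind, was in no window of a member. It was in 0.181% of genes with a mean of 8 or more and in 0.256% of all genes with a window. At shares this low its absence from 147 genes gives no information about the members. These matches describe the letters in the windows and are not evidence of binding.

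Carriers of nucleosides and of folate, both used in making nucleotides, held the largest falls. SLC28A3, a sodium-coupled importer of nucleosides, read 8.55 and 8.33 in the TGF-β1 arrays, against 9.83 and 9.50 in the untreated arrays. Both TGF-β1 arrays lay below both untreated arrays, and the gap was wider than the distance between replicates. SLC28A3 was 2.33-fold lower (log2 fold change -1.22 ± 0.148 SE, limma adjusted p = 0.0166). SLC29A2, an equilibrative nucleoside transporter, read 8.64 and 8.43 in the TGF-β1 arrays, against 9.19 in both untreated arrays. It was 1.57-fold lower (limma adjusted p = 0.0412), without overlap between the groups. The remaining member of this class, the lysosomal nucleoside transporter gene SLC29A3, read 9.24 and 9.52 in the TGF-β1 arrays and 9.04 and 9.10 in the untreated arrays. Its log2 fold change of 0.31 ± 0.126 (SE) did not pass (limma adjusted p = 0.290). The class of 3 thus had 2 members lower, 0 higher and 1 not called. It lacks the nucleoside transporter gene SLC29A1, which the rule leaves out. SLC29A1 averaged 9.75, above each of the 3, and its log2 fold change of -0.13 did not pass (limma adjusted p = 0.682).

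SLC19A1, the reduced folate carrier, read 9.41 in both TGF-β1 arrays, against 10.55 and 10.32 in the untreated arrays. The TGF-β1 replicates differed by less than the untreated ones, and the groups did not overlap. SLC19A1 was 2.03-fold lower (log2 fold change -1.02 ± 0.117 SE, limma adjusted p = 0.0138). The mitochondrial folate carrier gene SLC25A32 and the proton-coupled folate transporter gene SLC46A1, named after their values were seen, had log2 fold changes of -0.61 ± 0.124 and -0.31 ± 0.111 (SE). Neither passed (limma adjusted p = 0.0607 and 0.225), although SLC25A32 did with genes of mean under 7 left out and with an intensity trend. In both the TGF-β1 arrays lay below the untreated arrays.

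**Figure D1:**
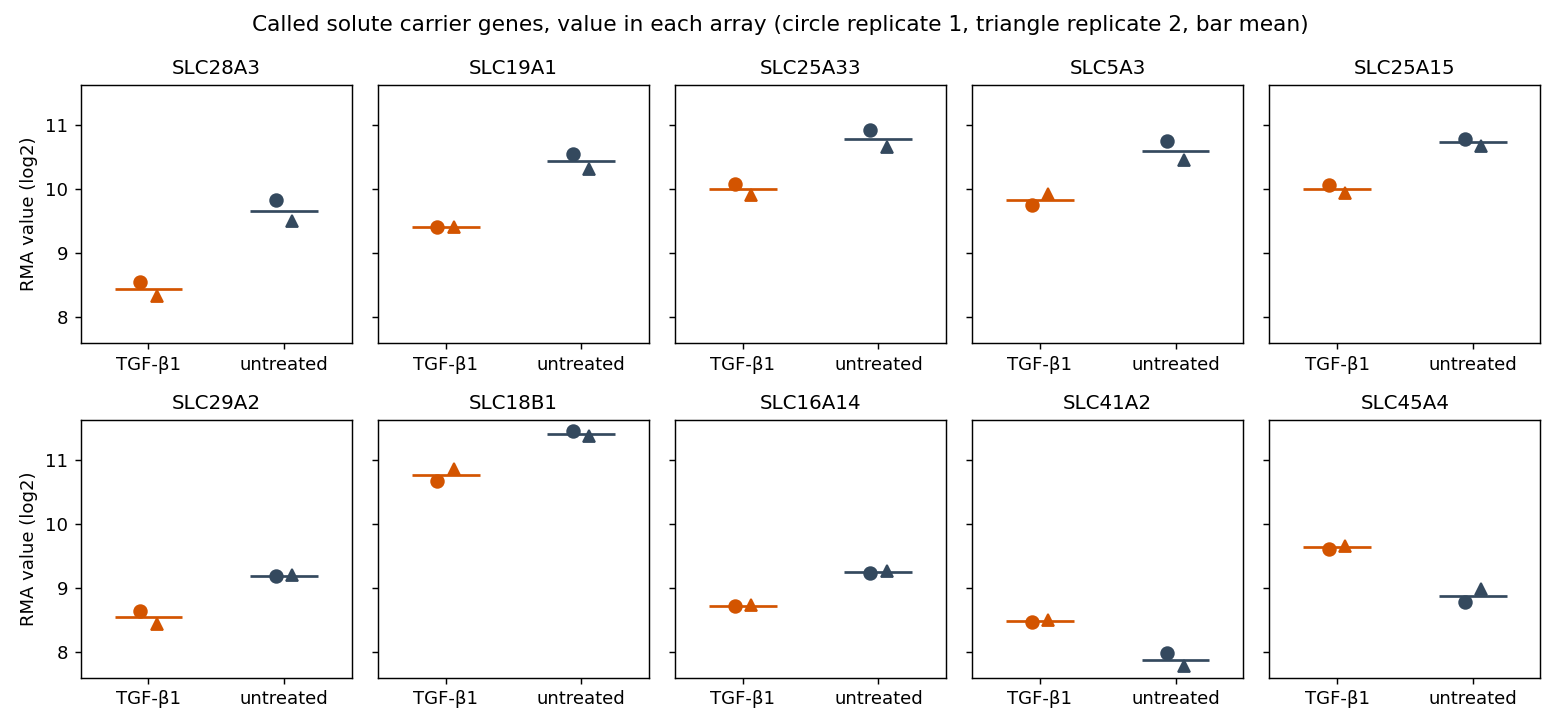
RMA value (log2) of the 10 called solute carrier genes in each array, with TGF-β1 left of untreated; circles are replicate 1, triangles replicate 2 and bars the group means of 2 arrays. No gene shows overlap between the groups, and 8 of the 10 are lower in the TGF-β1 arrays. The genes were called on these same values, so the lack of overlap is no separate support. Among all genes with a mean of 8 or more, the groups do not overlap in 56.6%.

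The vitamin, choline and cofactor class had 11 members, of which SLC19A1 fell and none rose; 10 did not pass, and the class median was 0.08 (log2). The choline transporter-like gene SLC44A4 read 10.13 and 9.86 in the TGF-β1 arrays, against 9.53 and 9.16 in the untreated arrays. Its groups did not overlap, yet the log2 fold change of 0.65 ± 0.162 (SE) did not pass (limma adjusted p = 0.102). SLC44A1, the brightest of the class and a choline transporter, read 12.14 and 12.22 in TGF-β1 arrays and 12.13 and 12.07 in untreated arrays. The 5 SLC44 genes, a family picked out after its values were seen, had log2 fold changes from 0.08 to 0.65, with 0 called.

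Of 33 mitochondrial SLC25 carriers, 2 fell, 0 rose and 31 did not pass. The class median was -0.05, with 21 members below 0 and 12 above. SLC25A33, a carrier of pyrimidine nucleotides, read 10.09 and 9.91 in the TGF-β1 arrays, against 10.93 and 10.66 in the untreated arrays. SLC25A33 was 1.73-fold lower (log2 fold change -0.79 ± 0.133 SE, limma adjusted p = 0.0387). SLC25A15, the ornithine and citrulline carrier that links mitochondria to the urea cycle, read 10.07 and 9.95 in the TGF-β1 arrays, against 10.79 and 10.68 in the untreated arrays. SLC25A15 was 1.65-fold lower (log2 fold change -0.73 ± 0.106 SE, limma adjusted p = 0.0271). In both genes the lowest untreated array stood clear of the highest TGF-β1 array.

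By substrate, the 12 carriers of nucleotides and cofactors had 1 lower and a median log2 fold change of -0.08. The 9 carriers of amino acids and glutathione had 1 lower and a median of -0.09. The 6 carriers of phosphate and carboxylates had 0 called and a median of -0.04. SLC25A13, an aspartate and glutamate carrier of the malate-aspartate shuttle named after its values were seen, had a log2 fold change of -0.53 ± 0.108 (SE) and did not pass (limma adjusted p = 0.0598), although it did with genes of mean under 7 left out. The phosphate carrier gene SLC25A3 read 14.38 and 14.44 in TGF-β1 arrays and 14.33 and 14.46 in untreated arrays, and its 95% interval for the log2 fold change was -0.23 to 0.28. The adenine nucleotide translocase gene SLC25A5 had an interval of -0.27 to 0.19. Both lie near the top of the scale of the arrays (highest values 15.26 to 15.34), where differences can be compressed.

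**Figure D2:**
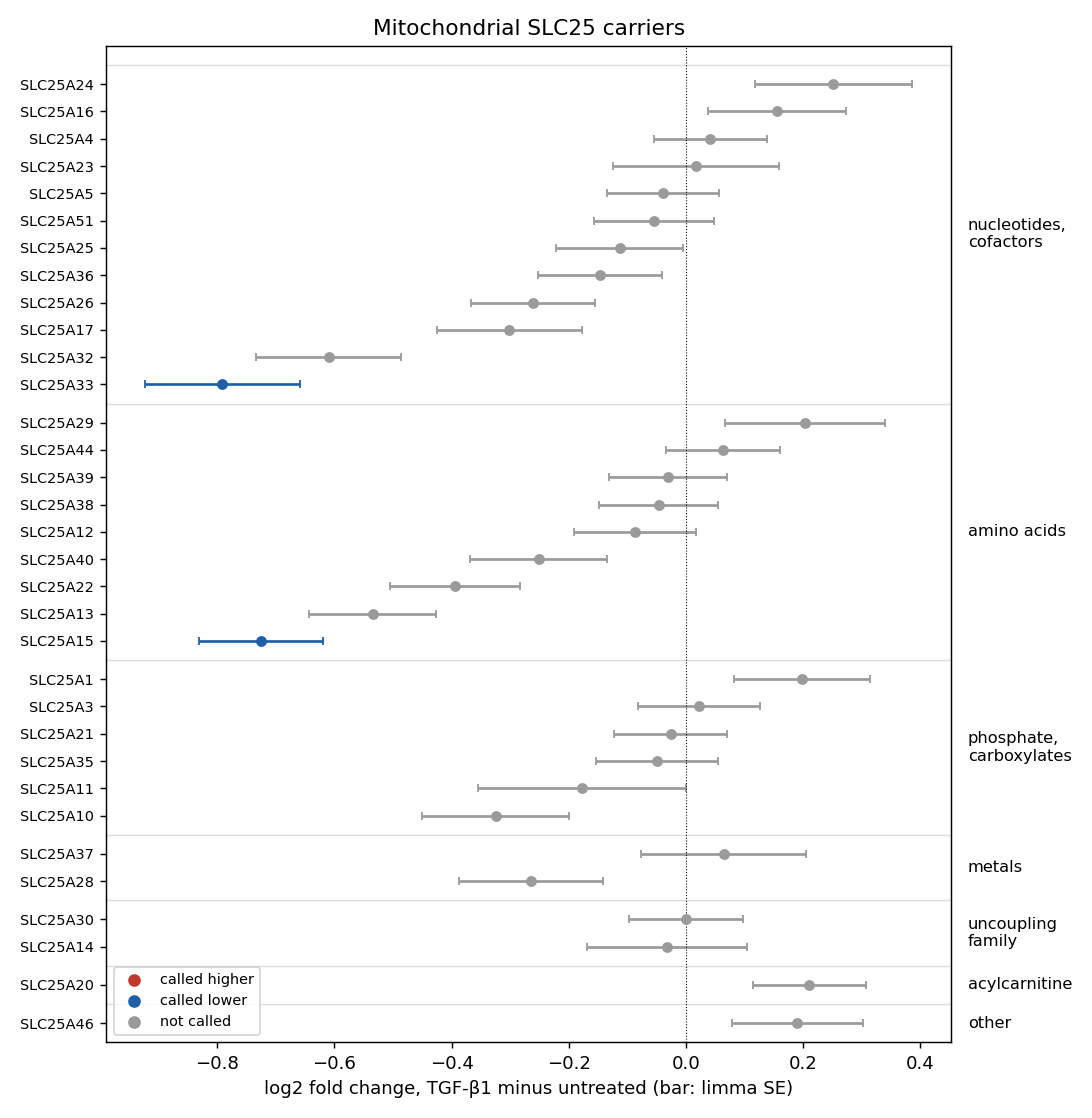
Log2 fold change (TGF-β1 minus untreated) of the 33 mitochondrial SLC25 carriers, with limma standard errors as bars, grouped by transported substrate; blue marks genes called lower and grey those not called. SLC25A33 and SLC25A15 are the lowest of the nucleotide and amino acid groups. Below 0 lie 21 of 33 points, against 83 of all 172 members.

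Of 25 metal and heme carriers, 1 rose and 0 fell; 24 did not pass, and the median was -0.05. SLC41A2, a magnesium transporter, read 8.47 and 8.504 in the TGF-β1 arrays, against 7.98 and 7.78 in the untreated arrays. SLC41A2 was 1.53-fold higher (log2 fold change 0.61 ± 0.112 SE, limma adjusted p = 0.0468). It averaged 7.88 in the untreated group and is a member only through its TGF-β1 arrays, so its rise is a description and lends no support to the count of members that rose. Its relatives SLC41A1 and SLC41A3, picked as such after values were seen, had log2 fold changes of 0.08 and -0.01. SLC39A10, a zinc importer of the cell surface, read 11.19 and 11.07 in the TGF-β1 arrays, against 12.26 and 11.77 in the untreated arrays. The groups did not overlap, but the untreated replicates were far apart, and the log2 fold change of -0.89 ± 0.174 (SE) did not pass (limma adjusted p = 0.0547). It passed with an intensity trend (0.0422) and with genes of mean under 7 left out (0.0404).

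Zinc carriers as families gave no call. Of 11 SLC39 importers, 0 were called and 7 lay below 0, with a median of -0.09. Of 6 SLC30 genes, which move zinc out of the cytosol, 0 were called and the median was -0.07. SLC39A6, the brightest zinc importer gene by its probe set, read 12.50 and 12.60 in TGF-β1 arrays and 12.79 and 12.68 in untreated arrays. Among 8 zinc-responsive genes, MTF1 (the zinc-sensing transcription factor) and 7 metallothioneins, all lay below 0, with a median of -0.22, and 0 passed by limma, also at an unadjusted p under 0.05. MT1F had the largest difference (-0.31 ± 0.135 SE). Metallothionein probe sets can read several of these near-identical genes, so the 7 are not separate readings. MT1M, 1 of the 7, averaged 4.63, well under the threshold of 8 used for members. Of 6 iron handling genes, 0 passed, and the ferroxidase gene HEPH had the largest difference, 0.33 ± 0.0986 (SE, limma adjusted p = 0.154).

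**Figure D3:**
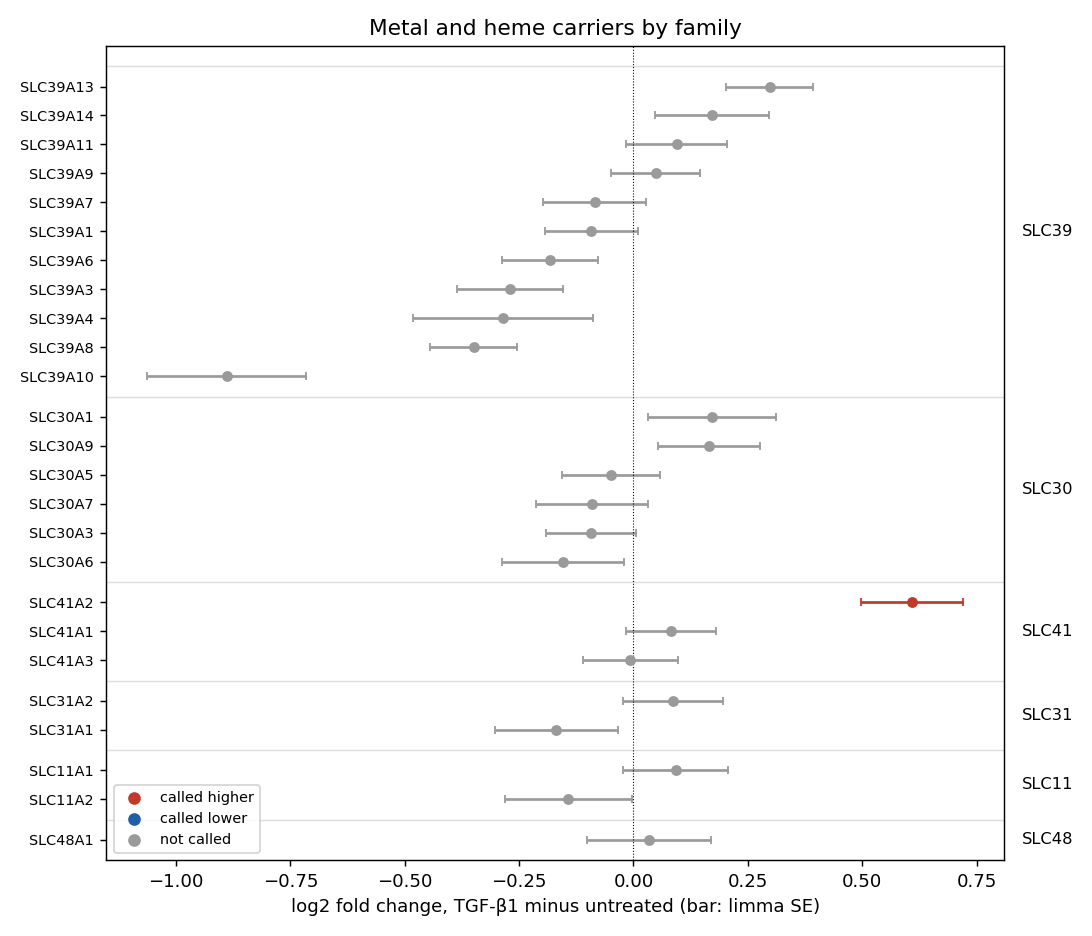
Log2 fold change (TGF-β1 minus untreated) of the 25 metal and heme carriers by family, with limma standard errors as bars; red marks the gene called higher and grey those not called. SLC41A2 stands highest at 0.61 and SLC39A10 lowest at -0.89, and SLC39A10 has a wider bar than most.

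Among 8 sugar and polyol carriers, 1 fell, 0 rose and 7 did not pass. SLC5A3, which imports myo-inositol with sodium, read 9.75 and 9.92 in the TGF-β1 arrays, against 10.75 and 10.46 in the untreated arrays. SLC5A3 was 1.70-fold lower (log2 fold change -0.77 ± 0.136 SE, limma adjusted p = 0.0439). No other member of the class changed by more than the 0.23 of SLC37A1, a sugar phosphate exchanger (limma adjusted p = 0.355). The class median of 0.07 leaves out the glucose transporter gene SLC2A1, which is outside the members and read 11.76 and 11.25 in the TGF-β1 arrays, against 10.18 and 10.01 in the untreated arrays. SLC2A1 was 2.66-fold higher (log2 fold change 1.41, limma adjusted p = 0.0185), a larger difference than any rise among the members. Of the other genes left out, SLC2A3 averaged under 6, and SLC7A11 and SLC29A1 both had a log2 fold change of -0.13, with 0 called.

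Amino acid and peptide carriers were the largest class of the cell surface without a call. Of 23 members, 0 rose and 0 fell by limma, and the median was 0.02. Without adjustment 2 were higher and 1 lower (p under 0.05), against 12.2% higher and 14.1% lower among all genes with a mean of 8 or more. SLC7A5, the light chain of the large neutral amino acid exchanger LAT1, read 13.74 and 13.81 in TGF-β1 arrays, against 13.61 and 13.85 in untreated arrays. The groups overlapped, with an interval (95%) of -0.24 to 0.33. SLC38A1, a glutamine transporter gene, had an interval of -0.35 to 0.21. The creatine transporter gene SLC6A8 read 9.77 and 9.40 in the TGF-β1 arrays, against 9.005 and 8.78 in the untreated arrays. The groups did not overlap, and the log2 fold change of 0.69 ± 0.158 (SE) did not pass (limma adjusted p = 0.0805), while it passed with the replicate block (0.0484). This probe set is of a kind that can also read related sequences, as is that of SFXN3. SLC43A1, a neutral amino acid transporter, had the lowest log2 fold change of the class, -0.44 ± 0.133 (SE, limma adjusted p = 0.163).

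SLC6A14, an amino acid importer of broad range, showed how far replicates could part. It read 10.17 and 8.47 in the TGF-β1 arrays and 10.00 and 9.15 in the untreated arrays, so that replicate 1 was higher in both groups. It was the 1 member that differed by over 2-fold between TGF-β1 replicates, and it was chosen after its values were seen. SLC7A7, a subunit of a cationic amino acid exchanger, behaved likewise, at 8.59 and 7.88 in TGF-β1 arrays and 8.25 and 7.43 in untreated arrays. Across members, replicate 1 exceeded replicate 2 in both groups for 70 genes, and replicate 2 exceeded replicate 1 for 38.

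Polyamine and carboxylate carriers each held a gene that fell. SLC18B1, a vesicular polyamine transporter, read 10.67 and 10.87 in the TGF-β1 arrays, against 11.45 and 11.38 in the untreated arrays. SLC18B1 was 1.56-fold lower (log2 fold change -0.65 ± 0.113 SE, limma adjusted p = 0.0420), the 1 call among 6 carriers of organic ions, drugs and amines. In that class the carnitine transporter gene SLC22A5 had the next largest difference, 0.22 (limma adjusted p = 0.351). SLC16A14, a little-characterised member of the monocarboxylate transporter family and the only member in its class, read 8.71 and 8.74 in the TGF-β1 arrays, against 9.23 and 9.27 in the untreated arrays. Replicates lay close together in both groups, and SLC16A14 was 1.44-fold lower (log2 fold change -0.53 ± 0.0965 SE, limma adjusted p = 0.0470).

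Of 5 fatty acid carriers, all of the SLC27 family, 0 passed. SLC27A2, a fatty acid transporter and very-long-chain acyl-CoA synthetase, read 10.47 and 10.53 in the TGF-β1 arrays, against 11.004 and 11.022 in the untreated arrays. The groups did not overlap and the log2 fold change was -0.52 ± 0.0969 (SE), with a limma adjusted p of 0.0501, just over the limit. It passed under 4 alternatives, with genes of mean under 5 left out (0.0455) or under 7 (0.0323), with an intensity trend (0.0385) and with averaged probe sets (0.0384). The bile acyl-CoA synthetase gene SLC27A5 differed by -0.44 ± 0.131 (log2, SE) and did not pass (limma adjusted p = 0.156).

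None of 15 inorganic ion carriers passed by limma, and at an unadjusted p under 0.05 there were 0 higher and 4 lower. Among all genes with a mean of 8 or more, 26.3% were under that p, 12.2% higher and 14.1% lower. The difference between these shares was not tested. SLC4A7, a sodium bicarbonate cotransporter, read 9.77 and 9.99 in TGF-β1 arrays and 10.72 and 10.24 in untreated arrays (log2 fold change -0.60 ± 0.178 SE, limma adjusted p = 0.152). SLC20A1, a phosphate importer, read 10.83 and 10.84 in TGF-β1 arrays and 11.28 and 11.29 in untreated arrays. Its replicates were nearly equal, and the log2 fold change of -0.44 ± 0.0956 (SE) did not pass (limma adjusted p = 0.0701), while it passed with genes of mean under 7 left out (0.0432) and with an intensity trend (0.0499). The related phosphate importer gene SLC20A2 had -0.36 ± 0.0976 (SE, limma adjusted p = 0.125). SLC20A2 averaged 7.99 in the TGF-β1 group and is a member only through its untreated arrays. Its difference is a description and lends no support to SLC20A1 or to the count of 4 lower. SLC12A2, the sodium, potassium and chloride cotransporter, had -0.29 ± 0.101 (SE, limma adjusted p = 0.212).

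Of 13 carriers of nucleotide sugars and other donors in the Golgi and endoplasmic reticulum, 0 passed, with 10 above 0 and a median of 0.08. The differences ran from -0.18 to 0.26, the upper end being SLC35D2, a nucleotide sugar transporter (limma adjusted p = 0.402), and SLC33A1, the acetyl-CoA transporter of the endoplasmic reticulum (limma adjusted p = 0.283). SLC35B1, which exchanges ATP and ADP across the endoplasmic reticulum, read 11.66 and 11.84 in TGF-β1 arrays and 11.70 and 11.60 in untreated arrays, with overlap.

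Among 20 carriers with no settled substrate in the class list, 1 rose and 0 fell, with 15 above 0 and a median of 0.13. SLC45A4, assigned to a family of proton-coupled sugar carriers, read 9.61 and 9.66 in the TGF-β1 arrays, against 8.78 and 8.98 in the untreated arrays. SLC45A4 was 1.69-fold higher (log2 fold change 0.76 ± 0.113 SE, limma adjusted p = 0.0283), the largest rise among the members. SLC35F2 differed by 0.49 ± 0.144 and SLC9D1 by 0.27 ± 0.106 (log2, SE), and neither passed (limma adjusted p = 0.147 and 0.268). A further 9 members are antisense or divergent transcripts, a pseudogene or genes that carry the name without being carriers, and 0 of them passed. The lowest of these, the noncoding transcript SLC9A3-OT1, differed by -0.47 ± 0.131 (log2, SE; limma adjusted p = 0.130), and SLC9A3-AS1 by -0.36 ± 0.221 (SE) with overlapping groups.

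**Figure D4:**
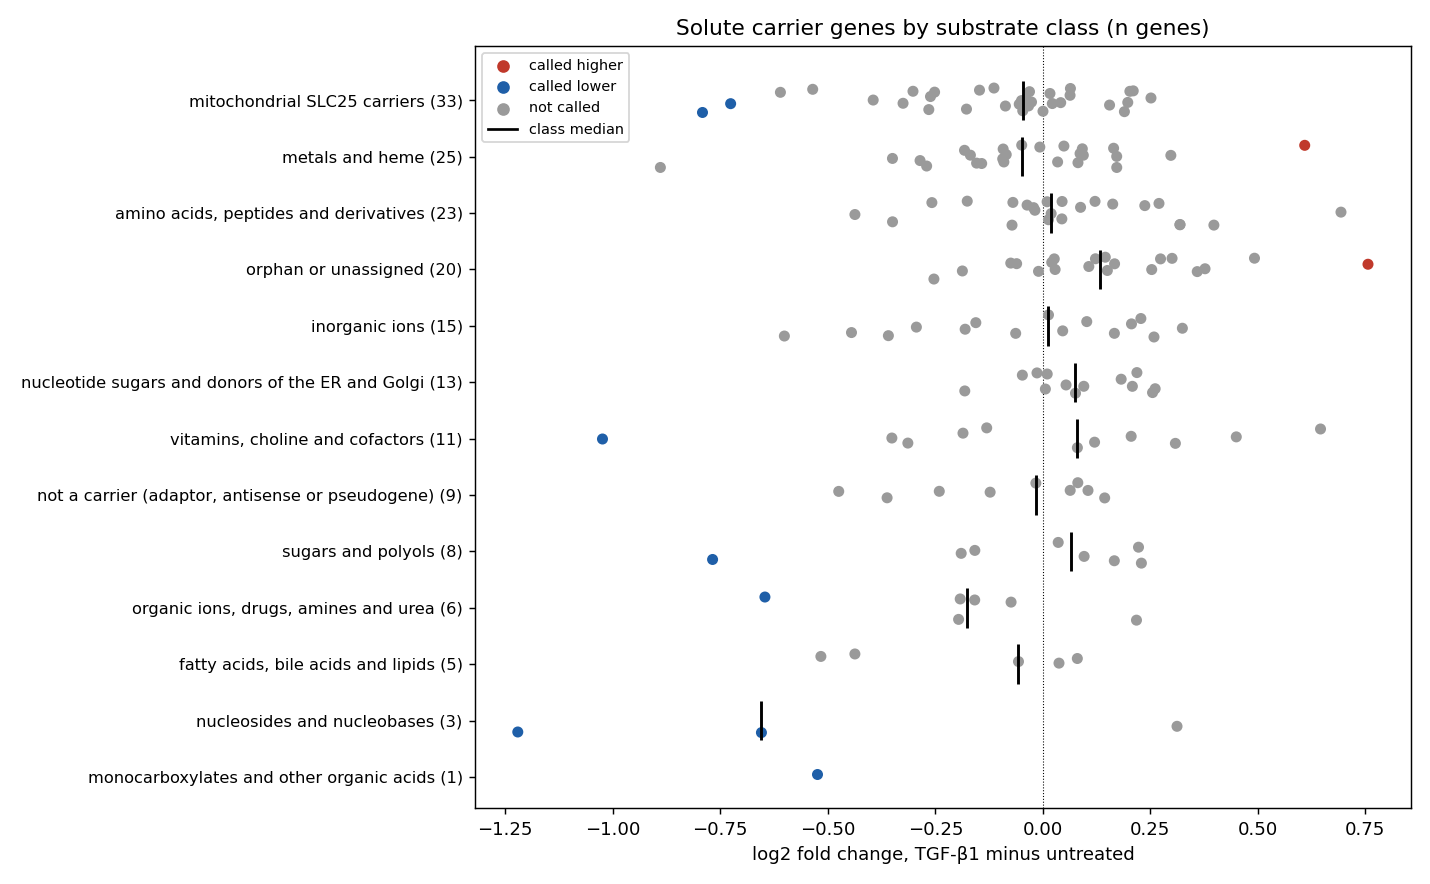
Log2 fold change (TGF-β1 minus untreated) of all 172 members by substrate class, 1 point per gene with vertical jitter; red and blue mark genes called higher and lower, and black bars the median of classes with 3 or more genes. Class medians lie between -0.18 and 0.13 except for the 3 nucleoside carriers at -0.65. SLC29A1, left out by the rule, is not among these 3.

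Without regard to the test, the groups did not overlap in 95 of 172 members (55.2%), 50 (29.1%) with the TGF-β1 arrays above and 45 (26.2%) below. Among all genes with a mean of 8 or more the groups did not overlap in 56.6%, with the TGF-β1 arrays above in 26.9% and below in 29.7%, and among all genes in 44.4%. By the unadjusted p, 14 members were higher (8.14%) and 26 lower (15.1%), 23.3% together. The same share was 26.3% of genes with a mean of 8 or more (12.2% higher and 14.1% lower) and 16.7% of all genes. The median absolute difference between the groups was 0.17 on the log2 scale, and the median absolute difference between replicates 0.12 in the TGF-β1 group and 0.13 in the untreated group.

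Other probe sets of the called genes were read where they exist. For SLC19A1, 3 further probe sets averaged 8 or more, with log2 fold changes of -0.83, -0.91 and -0.83, each passing over all 54613 probe sets (limma adjusted p = 0.0333, 0.0268 and 0.0343). For SLC28A3 the other probe set gave -0.67 ± 0.101 (SE, limma adjusted p = 0.0536), a smaller difference than the -1.22 of the one used. SLC5A3 gave -0.79, SLC25A15 -0.71, SLC41A2 0.69 and SLC45A4 0.63 by their next brightest probe sets, each in the direction of the one used and none passing at this level. For SLC29A2 the other 4 probe sets averaged under 8 and ranged from -0.41 to 0.09, and the mean of its 5 probe sets gave -0.26 (limma adjusted p = 0.201). SLC25A33, SLC18B1 and SLC16A14 had 1 probe set each. Over all members, 74 had a second probe set of mean 8 or more, and 14 of these had the opposite sign, none of them in a called gene.

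**Figure D5:**
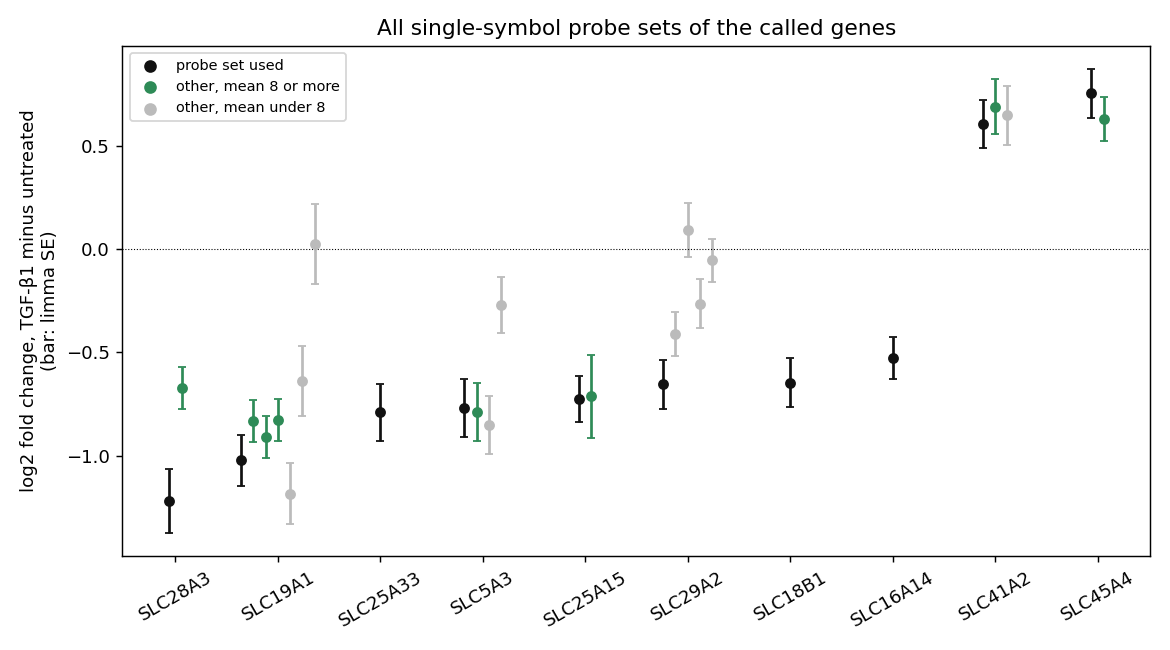
Log2 fold change (TGF-β1 minus untreated) of every single-symbol probe set of the 10 called genes, with limma standard errors as bars; black is the probe set used, green another with a mean of 8 or more and grey one under 8. All black and green points of a gene lie on the same side of 0.

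The rule has a threshold at a mean of 8. Just inside it, SLC24A1 (a sodium and calcium exchanger gene) averaged 8.01, SLC7A7 8.04 and SLC52A3 (a riboflavin transporter gene) 8.08, followed by SLC20A2 and SLC2A13 (a myo-inositol transporter gene) at 8.17. Just outside it, SLC45A3 averaged 7.997, SLC60A2 7.98, SLC25A43 7.95, SLC16A5 7.93 and the zinc transporter gene SLC30A4 7.92. None of these 10 was called, and over the 201 solute carrier genes with a mean under 8, 1.49% were. SLC30A4 read 8.69 and 8.06 in TGF-β1 arrays, against 7.71 and 7.23 in untreated arrays, and did not pass (limma adjusted p = 0.128). The level of 1 probe set cannot be set against that of another as an amount of RNA, so the threshold separates bright from dim signals and not abundant from rare transcripts.

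Related transport genes outside the rule were read as lists. For comparison, 3.34% of all genes tested were called, and 5.77% of genes with a mean of 8 or more. Of 22 genes that belong to the solute carrier superfamily under other names, 1 rose and 0 fell. This was SFXN3, a mitochondrial serine transporter of the sideroflexin family, at 10.63 and 10.56 in TGF-β1 arrays, against 10.08 and 10.07 in untreated arrays (1.43-fold, limma adjusted p = 0.0493). Of 13 ABC transporter genes, 1 rose, ABCC3, an exporter of conjugated organic anions, at 8.997 and 8.88 in TGF-β1 arrays, against 8.08 and 8.19 in untreated arrays (1.75-fold, limma adjusted p = 0.0198). Of 6 sodium pump subunits and ion transport kinases and 7 carrier chaperones and ancillary proteins, 0 passed. The largest differences there were 0.39 for the kinase gene SGK1 (limma adjusted p = 0.131) and 0.35 for the scaffold gene NHERF2, which averaged under 7 (limma adjusted p = 0.249).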

How the data were processed

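Total RNA of 4 samples was read on HG-U133 Plus 2.0 arrays. The deposited log2 values were made by the authors with RMA (background correction, quantile normalization and summarization per probe set), per the series' design text; its version is not stated, and the log2 scale was judged from the values. Array medians ran from 6.57 to 6.61. RMA removes any shift shared by most transcripts and gives no detection call. The number of arrays limits the precision.

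Of 54675 probe sets, 41097 had 1 symbol in the platform annotation, and the brightest per gene over the 4 arrays was used (19775 genes). Groups were taken from the sample titles and compared in R 4.3.3 with the limma package, version 3.58.1 (lmFit, then eBayes; no trend, no covariate, two-sided, 6.13 degrees of freedom), with Benjamini-Hochberg adjustment over all genes. An exact permutation of 2 against 2 arrays cannot go below p = 0.333. Substrate classes were assigned by family, and 12 genes were reassigned or assigned after the table was read. The members and lists were chosen with earlier results of these data known. The genes named are all called members, the 2 with the largest change and the brightest of each class of 3 or more, the 5 brightest and 5 dimmest members, the 5 just under the threshold, the 4 left out, members whose second probe set differs in call, called genes of the partner lists or their largest change, and TGFBR2; other names were picked with their values in view. The alternatives tried were filters on dim genes, an intensity trend, median centring, averaged probe sets, every probe set tested, a replicate block, each array left out, other thresholds and other member minimums. On simulated data of 19775 genes with independent arrays, calls were made for 2% of 50 genes simulated with a 1.5-fold change. They were made for 50% of those with 2-fold and for 94% of those with 4-fold. The simulation held 50 changed genes at each fold, while 660 genes were called in the real data. The adjustment is stricter where fewer genes change, so these rates do not carry over to the real data. SLC16A14, for example, was called at 1.44-fold. Changes of 2-fold or less, and some of up to 4-fold, can be missed, at rates that the simulation does not give.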

Additional observations from a re-analysis of the deposited data

How the results depend on the processing

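The count of 2 members higher and 8 lower depended on the setting. It became 0 and 0 with any 1 of the 4 arrays left out (range 0 to 0 for both directions), where 1 residual degree of freedom is left, and 0 and 2 with every probe set tested. A further 2-fold minimum gave 0 and 2, also with the unadjusted p of the series' design text, and an unadjusted p under 0.05 alone gave 14 and 26. With genes of mean under 7 left out 13 members fell, and with a member minimum of 9 there was 1 higher. Samples share replicate numbers, whose deviations correlated at 0.533 over members and at 0.364 over all genes. With only 2 numbers this does not show pairing. With the replicate block 4 members fell and 2 rose, and 5 of the 10 calls were kept. Class medians that moved by more than the spread between replicates were those of the fatty acid carriers (-0.13 to -0.030 with 1 array left out, -0.44 with a minimum of 9), the nucleoside carriers (-0.26 with averaged probe sets, -0.33 with a minimum of 7, -0.45 with 9), the organic ion carriers (-0.28 to -0.091 with 1 array left out, -0.16 with a minimum of 9), the sugar carriers (0.012 with averaged probe sets, 0.011 with a minimum of 7, -0.16 with 9) and the vitamin and choline carriers (-0.084 to 0.11 with 1 array left out, -0.13 with a minimum of 9). The cause was not tested. The last 2 classes changed sign, so their medians give no direction. Over the 40 members named by the stated rule, 376 comparisons with an alternative kept their side of the threshold, 55 lost the call and 9 gained it, and no called gene among them changed sign. Only a called gene can lose a call, so all 55 losses fall on the 10 called members. Most of the 376 are of genes not called in the main fit, so they do not measure how stable the calls are.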

Other observations

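Of the 201 solute carrier genes with a mean under 8, which are outside the members, 2 fell and 1 rose (limma adjusted p under 0.05, 1.49%), named here after their values were seen. SLC35E4, an orphan of the nucleotide sugar transporter family, read 7.87 and 7.76 in TGF-β1 arrays, against 6.58 and 6.91 in untreated arrays, and was 2.10-fold higher (limma adjusted p = 0.0185). SLC35G1 read 7.03 and 7.29 in TGF-β1 arrays, against 7.95 and 8.002 in untreated arrays, and was 1.76-fold lower (limma adjusted p = 0.0280). SLC12A8, placed with the cation and chloride cotransporters by sequence, read 7.35 and 7.30 in TGF-β1 arrays, against 7.92 and 7.93 in untreated arrays, and was 1.52-fold lower (limma adjusted p = 0.0338). The 2 SLC35 genes of unknown substrate thus moved in opposite directions, while 0 of the 13 members in the nucleotide sugar class passed.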
